A study of Mus musculus with 18 samples.

Results

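Prostaglandin E2 is a lipid signal made inside the kidney collecting duct, the last tubule segment in which urine is concentrated. The genes described here are 10 that make it, sense it or break it down. Ptgs1, Ptgs2, Ptges, Ptges2 and Ptges3 encode enzymes of its synthesis, Ptger1, Ptger2, Ptger3 and Ptger4 encode its EP receptors, and Hpgd encodes the dehydrogenase that inactivates it. They were taken by symbol, and 10 of 10 were found among the 24111 rows of the count table and in the FPKM table (fragments per kilobase of gene length, scaled to the library's counted reads).

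RNA was sequenced from 18 libraries of mpkCCD cells, an immortalised mouse cell line with features of the principal cell of the collecting duct, so all libraries come from a cultured line and not from tissue. All cells were grown on permeable supports and kept in serum-free medium for 24 h. Of these, 9 libraries (control 1 to 9) stayed in serum-free medium without drug and 9 (dDAVP 1 to 9) received 0.1 nM dDAVP for 24 h. dDAVP, or desmopressin, is a vasopressin analogue selective for the V2 receptor, which raises cAMP in principal cells. The labels do not say whether replicates were separate cultures, so p-values measure the spread between these libraries, which may be technical.

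As background, cyclooxygenases turn arachidonic acid into prostaglandin H2, and prostaglandin E synthases turn that into prostaglandin E2. EP1 and EP3 receptors are known to oppose vasopressin in the collecting duct, through calcium and through lowered cAMP, while EP2 and EP4 receptors raise cAMP. Ptgs1 is the constitutive cyclooxygenase gene, and Ptgs2 the inducible one.

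Counted reads ranged from 22.2 to 105.9 M per library. Replicate numbers 1 to 3, 4 to 6 and 7 to 9, here the first, the second and the third set, formed groups that the labels do not name as batches, and 78% of the 10121 genes tested differed between the sets. Library dDAVP 6 stood apart from its set, with Pearson correlations across genes of 0.77 to 0.81 with the other 5 libraries against 0.89 to 0.95 among those. The third set did not divide by treatment. Control 8 correlated at 0.96 with dDAVP 7, while dDAVP 7 correlated at 0.79 and 0.83 with dDAVP 8 and dDAVP 9. Aqp2, the vasopressin-induced water channel gene and the check of the treatment label, was at 10.8, 37.2 and 251 normalised CPM (counts per M of a library total scaled by edgeR's TMM method) in controls 7 to 9 and at 2756, 174 and 192 with dDAVP. In CPM from library totals alone these were 25.1, 49.8 and 291 in control and 3598, 551 and 530 with dDAVP, so the overlap of the groups for Aqp2 in this set comes with the TMM scaling. In the other sets every dDAVP library was above every control of its set on both scales. Libraries dDAVP 2 and dDAVP 3 held counts of genes of other kidney tubule segments, given with Ptger3. Among these Umod reached 8.49 FPKM in dDAVP 2. Principal cell markers were present (7 of 10 at a mean of at least 1 FPKM, and 6 of 6 collecting duct epithelial markers), while 0 of 7 fibroblast and 0 of 4 endothelial markers reached that level.

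Expression of the pathway in these cells rested on few of its genes. By median FPKM over the 18 libraries, which allows genes to be compared per length, the order was Ptges3 (103), Ptgs1 (10.7), Ptges2 (6.52), Ptger1 (6.10) and Ptger4 (0.151), and the other 5 had a median of 0. Neighbours in this order overlapped over the libraries, since FPKM ranged from 2.51 to 32330 for Ptges3, from 1.33 to 61.3 for Ptgs1, from 0.413 to 102 for Ptges2, from 0.581 to 138 for Ptger1 and from 0.0238 to 1.40 for Ptger4. Ptger2 and Hpgd had 0 counts in all 18 libraries. A count of 0 allows up to 3 counts, which is 0.0283 to 0.135 CPM depending on the depth of the library, and this limit covers counting error only.

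**Figure D1:**
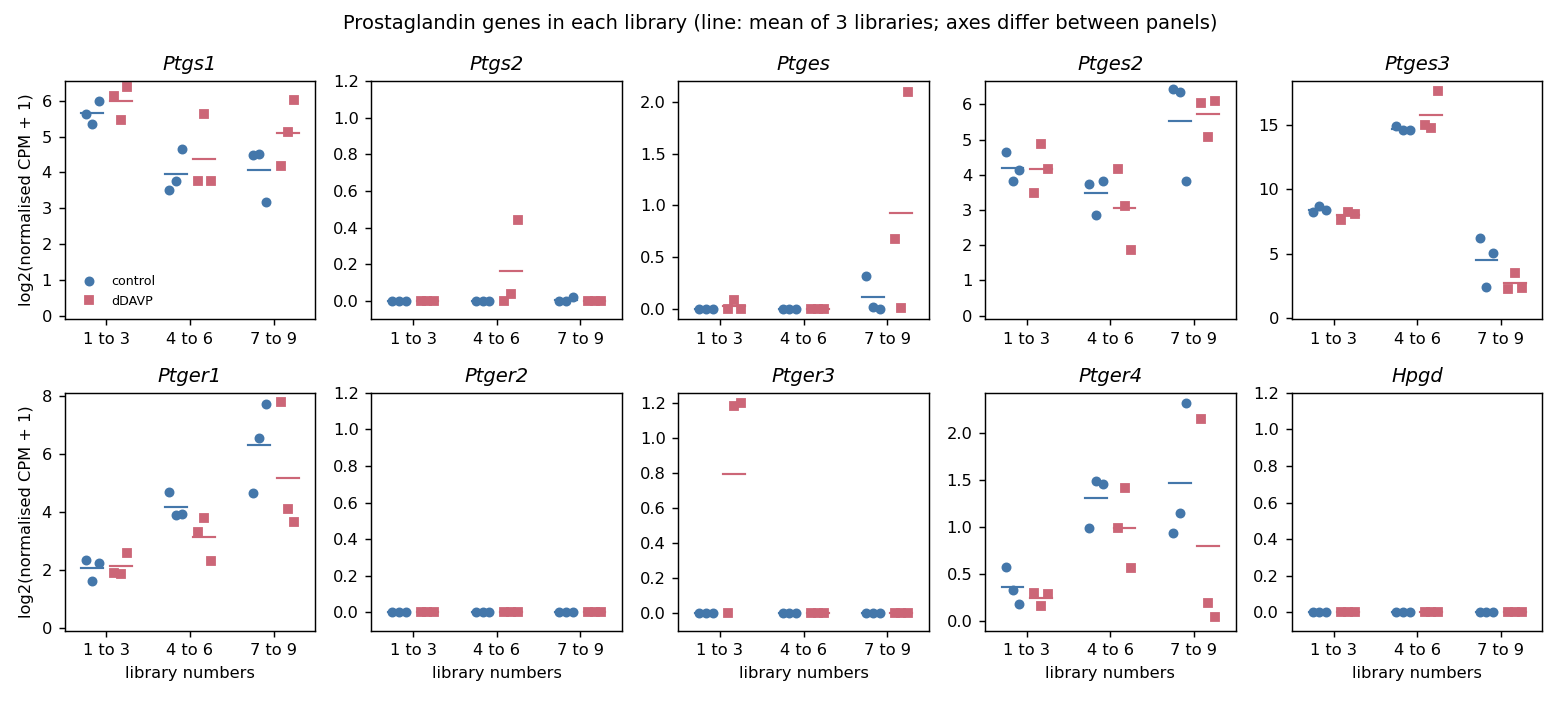
Normalised CPM of the measured prostaglandin genes in each of the 18 libraries, on a log2 scale with an offset of 1 CPM, by set of replicate numbers; points are single libraries and lines are the means of the log2 values of 3 libraries. The widest separation between sets is that of Ptges3 (24833 to 206210 normalised CPM in libraries 4 to 6 against 3.75 to 411 elsewhere).

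Comparing dDAVP with control asked which of these genes a 24 h vasopressin signal changed. None of them passed the test. The edgeR quasi-likelihood fit on all 18 libraries with the set as a term tested 5 of the 10 (Ptgs1, Ptges2, Ptges3, Ptger1 and Ptger4), the rest being too low, and called 0 at a Benjamini-Hochberg adjusted p under 0.05, where 0.079% of all tested genes were called. At an unadjusted p under 0.05 it held 1 of the 5, Ptgs1, against 6.03% of all genes. In these bulk libraries fewer expressing cells and less RNA per cell cannot be told apart. Limma voom with sample quality weights also called 0 of the 5, and DESeq2 called 0 of 4, giving no adjusted p for Ptges3. Of the 5 log2 fold changes 1 was positive (52.2% over all genes), with a median of -0.44 against 0.02 over all genes. Without the set term edgeR called 0 of 5 members and 0% of all genes, with 0 members and 2.15% of genes when left unadjusted.

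**Figure D2:**
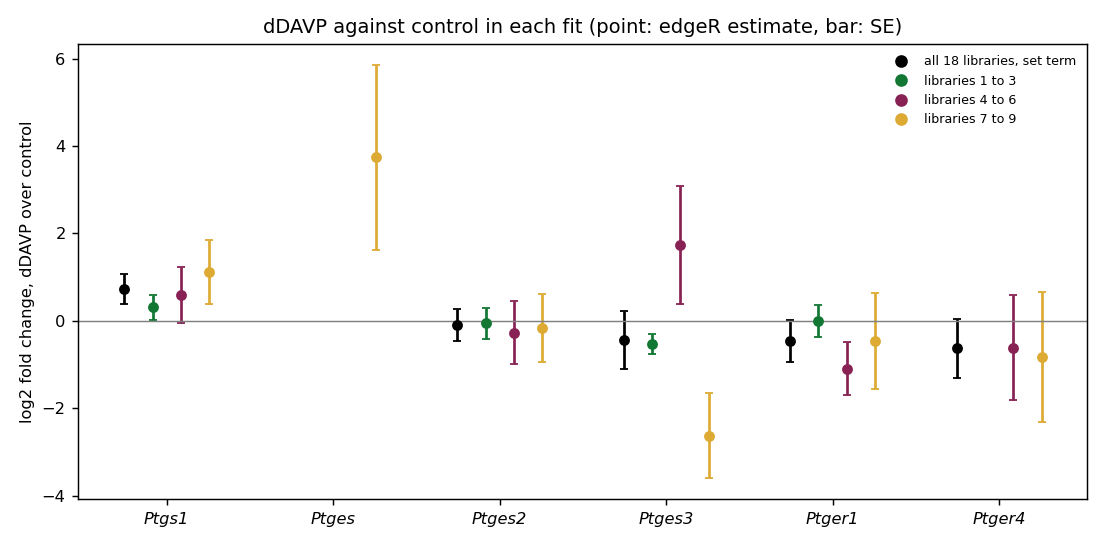
Log2 fold change of dDAVP over control for each tested prostaglandin gene in the edgeR fit of all libraries with the set term and in the fit of each set; points are estimates and bars are 1 SE. Ptgs1 lies above 0 in all 4 fits (0.31 to 1.12), and no gene passed after adjustment over all genes.

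Within the sets, each fitted on its own 6 libraries, edgeR also called 0 members. The first set had 4 members tested and 0 called (0.456% of all genes were called). The second had 5 tested and 0 called (0% of all genes), and the third had 6 tested, with Ptges added, and 0 called (0% of all genes). At an unadjusted p under 0.05 there was 1 member in the first set (10.5% of all genes), 0 in the second (4.61%) and 1 in the third (5.19%), and this was Ptges3 both times. The lowest edgeR adjusted p of a member was 0.453, 0.999 and 0.923 in the 3 sets. The median log2 fold change of the tested members was -0.03, -0.27 and -0.31, beside -0.01, -0.03 and -0.03 over all genes. By comparison, Aqp2 rose in libraries 1 to 3 (log2 fold change 6.32, SE 0.36, edgeR adjusted p = 6.09e-06) and in the fit with the set term (4.63, SE 0.72, adjusted p = 0.00504). It was not called in the second set (4.14, SE 0.77, adjusted p = 0.772), in the third (3.31, SE 1.38, adjusted p = 0.938) or without the set term (4.54, SE 0.84, adjusted p = 0.203), so these fits did not call even the gene that checks the treatment.

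The cyclooxygenase genes differed widely in level. Ptgs1 (chromosome 2, 36230426 to 36252272, plus strand, GRCm38, the assembly that mm10 names) had counts in 18 of 18 libraries. Ptgs2 (chromosome 1, 150100031 to 150108227, plus strand) had 1 count in control 9, 1 in dDAVP 5, 3 in dDAVP 6 and 0 in each of the other 15 libraries, so it was at or under the limit of detection everywhere. No fold between control and dDAVP can be given for Ptgs2 at this depth.

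To set these genes beside the cAMP signal that the V2 receptor is known for, the RefSeq sequences around their start sites (build GRCm38.p6) were read for 9 of the 10 members, from 250 bases before the annotated start to 30 bases from it. The sequences of Ptgs1 (chr2:36230176-36230455, plus strand), Ptgs2 (chr1:150099781-150100060, plus strand) and Ptges3 (chr10:128058732-128059011, plus strand) are shown, 5′ to 3′, since they are the measured cyclooxygenase gene, the one near 0 and the synthase gene that differs most between libraries. Capitals mark the CRE half-site TGACG, here on the reverse strand, as CGTCA.
Ptgs1: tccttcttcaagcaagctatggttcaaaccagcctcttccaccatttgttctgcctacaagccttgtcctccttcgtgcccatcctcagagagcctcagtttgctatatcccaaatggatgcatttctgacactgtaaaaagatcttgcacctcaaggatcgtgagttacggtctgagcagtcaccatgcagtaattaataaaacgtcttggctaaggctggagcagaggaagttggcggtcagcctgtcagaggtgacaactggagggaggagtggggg
Ptgs2: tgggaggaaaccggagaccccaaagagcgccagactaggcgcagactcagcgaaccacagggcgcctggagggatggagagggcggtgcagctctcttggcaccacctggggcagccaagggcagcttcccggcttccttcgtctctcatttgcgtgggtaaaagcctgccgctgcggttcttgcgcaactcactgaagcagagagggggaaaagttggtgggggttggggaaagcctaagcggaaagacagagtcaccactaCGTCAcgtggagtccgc
Ptges3: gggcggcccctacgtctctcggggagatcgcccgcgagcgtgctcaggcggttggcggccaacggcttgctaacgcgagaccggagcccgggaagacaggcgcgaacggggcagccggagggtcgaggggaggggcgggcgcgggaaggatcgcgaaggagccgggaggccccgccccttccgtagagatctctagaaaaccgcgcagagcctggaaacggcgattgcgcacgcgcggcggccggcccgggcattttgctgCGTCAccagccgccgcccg

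The half-site TGACG, searched on both strands, was in the windows of Ptgs2 and Ptges3, starting 14 and 12 bases after the start, and in 19.9% of the 32851 windows of the same length in the table. The whole palindrome TGACGTCA, which contains the half-site, was in 0 of the 9 windows and in 1.7% of all. The GC box GGGCGG was in 6 of the 9, among them Ptgs2, Ptges and Ptges3 but not Ptgs1 (34.7% of all windows). The TATA box TATAAA was in that of Hpgd, at position 5 from the annotated start (13.1% of all windows), and in no other of the 9. These matches describe letters in a window and not sites that were bound. For Ptger2, Ptger3 and Hpgd the bases after the annotated start were not found near the start of an annotated transcript. Their windows are thus less certain.

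Of 9 replicate numbers, 7 had more Ptgs1 in the dDAVP library in normalised CPM, and 6 in CPM from library totals. Same-numbered libraries were not shown to be pairs, so these counts depend on the numbering. The difference between the groups did not pass the test. In libraries 1 to 3 it was at 48.9, 39.6 and 63.2 normalised CPM in control and at 69.0, 43.3 and 82.8 with dDAVP. Values overlapped, with dDAVP 2 below control 1. In the second set it was at 10.3, 12.4 and 24.1 in control and at 12.4, 48.9 and 12.4 with dDAVP, so that dDAVP 5 alone lay above the controls. In the third set it was at 21.4, 21.7 and 8.07 in control and at 17.2, 34.0 and 63.7 with dDAVP, where dDAVP 8 and dDAVP 9 were above all controls and dDAVP 7 below 2 of them. With the set term the log2 fold change of Ptgs1 was 0.73 (SE 0.35), a 1.66-fold difference, with an unadjusted p of 0.0489 and an edgeR adjusted p of 0.816. It was 0.31 (SE 0.29), 0.59 (SE 0.64) and 1.12 (SE 0.74) in the 3 sets, and the interaction of set and treatment had an edgeR p of 0.651. A two-sided exact permutation test within the sets over 8000 regroupings gave p = 0.101.

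Ptges, which encodes the inducible membrane-bound prostaglandin E synthase (chromosome 2, 30889471 to 30929863, minus strand), was counted in 6 of 18 libraries. It had 24 counts in control 7, 1 in control 8, 1 in dDAVP 2, 83 in dDAVP 7, 1 in dDAVP 8 and 660 in dDAVP 9. In dDAVP 9 this was 3.28 normalised CPM and 2.49 FPKM, the only library above 1 FPKM. No count fell in libraries 4 to 6. Within the third set the groups overlapped, dDAVP 8 lying below control 7, and the log2 fold change of 3.74 (SE 2.12) had an edgeR adjusted p of 0.938. Without dDAVP 9 it was 1.72, and without control 7 it was 7.80.

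Ptges2, which encodes another membrane-associated prostaglandin E synthase (chromosome 2, 32395896 to 32405772, plus strand), had the smallest log2 fold change with treatment of the 5 genes tested with the set term. It was at 24.1, 13.3 and 16.6 normalised CPM in controls 1 to 3 and at 10.1, 28.1 and 16.9 in dDAVP 1 to 3. The means of the second set were 10.6 ± 3.73 in control and 9.09 ± 7.28 with dDAVP (SD, n = 3 each), and dDAVP 6 was lowest at 2.63. Those of the third set were 59.7 ± 40.4 and 55.1 ± 19.7, and control 9 was lowest at 13.1 while the other 5 libraries lay between 32.5 and 85.6. The groups overlapped in each set. The log2 fold change with the set term was -0.10 (SE 0.37, edgeR adjusted p = 0.983), with a 95% interval from -0.83 to 0.63. In the first set the interval ran from -0.75 to 0.62. It was wider without the set term (-1.31 to 1.12), in the second set (-1.68 to 1.14) and in the third (-1.69 to 1.37). These wider intervals include a 2-fold change in either direction. All the intervals take a normal distribution, so with few libraries they are too narrow.

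Ptges2 was higher in libraries 7 to 9 than in libraries 1 to 3, by 1.66 on the log2 scale (SE 0.47, edgeR adjusted p = 0.00371), and than in libraries 4 to 6, by 2.55 (SE 0.48, adjusted p = 0.000175). For these contrasts 63.7% and 48.2% of all genes were called. The level of Ptges2 relative to Ptgs1, as a ratio of FPKM, ran from 0.215 to 0.954 in the first set and from 1.40 to 5.87 in the third, without overlap, while the second covered 0.23 to 2.01. Ptgs1 itself was lower in libraries 4 to 6 than in libraries 1 to 3 (log2 difference -1.56, SE 0.43, edgeR adjusted p = 0.00441, with 55.9% of all genes called). In libraries 7 to 9 it was lower on the TMM scale (-1.16, SE 0.43, adjusted p = 0.0235), but its mean was higher there than in libraries 1 to 3 in CPM from library totals (65.7 against 45.0) and in FPKM (22.9 against 15.7), so this direction rests on the scaling. Macrophage markers also varied. The summed FPKM of the 5 measured ones was 2.33 to 3.56 in control and 3.67 to 4.62 with dDAVP in the first set, 3.92 to 6.63 and 0.485 to 10.2 in the second, and 7.74 to 22.4 and 26.9 to 59.6 in the third. Control and dDAVP did not overlap in the first and the third set in FPKM, which takes no TMM factor. These factors were 2.323, 1.34 and 1.157 in controls 7 to 9 and 1.306, 3.165 and 2.759 in dDAVP 7 to 9. Whether the sums separate on the TMM scale was not tested. The share of all genes that separate in this way is not given here. The separation is thus not read as a response to dDAVP. The sum was carried by Cd68, Csf1r and Cd14, while the leukocyte marker Ptprc reached at most 0.00282 FPKM. The part of these transcripts in the differences between sets or treatments was not tested.

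Ptges3 encodes p23, a co-chaperone of Hsp90 also described as a cytosolic prostaglandin E synthase (chromosome 10, 128058954 to 128077272, plus strand). It was the member that varied most. Its transcripts took 1.66, 3.11 and 2.3% of all counts in controls 4 to 6 and 2.1, 2.8 and 6.32% in dDAVP 4 to 6, against at most 0.0334% in any other library. Ranked by count, Ptges3 had ranks of 1 to 9 among all genes in libraries 4 to 6, and of 442 to 6889 elsewhere. It was 1 of 11 genes at 10000 CPM or more in each of libraries 4 to 6.

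**Figure D3:**
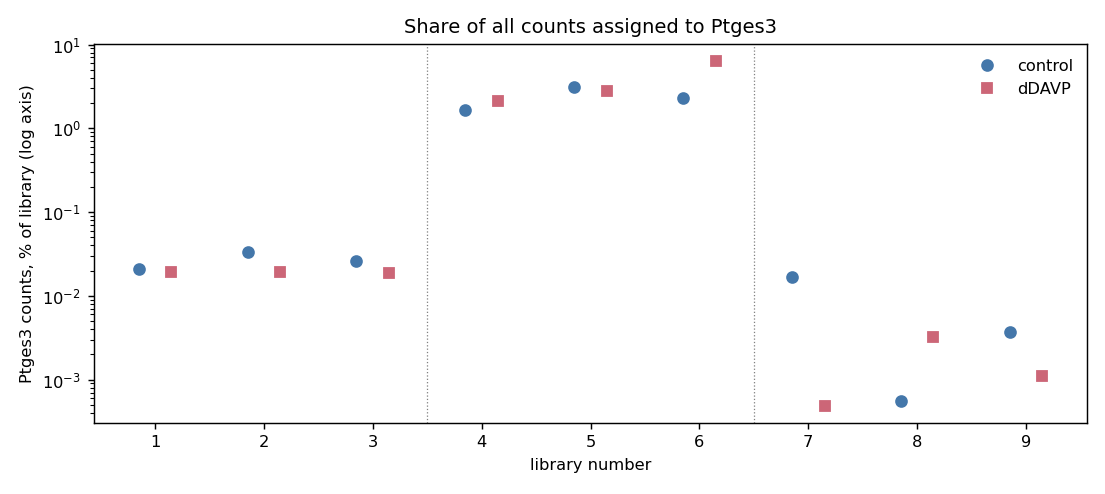
Share of counted reads taken by Ptges3 in each library, in percent on a log axis, by set of replicate numbers and treatment. Libraries 4 to 6 lie between 1.66 and 6.32%, and all others at or below 0.0334%.

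Relative to libraries 1 to 3, Ptges3 was higher in libraries 4 to 6 by 7.74 on the log2 scale (SE 0.94, edgeR adjusted p = 4.12e-07) and lower in libraries 7 to 9 (log2 difference -3.96, SE 0.79, adjusted p = 0.000175). Of all genes, 55.9% and 63.7% were called for these contrasts. In CPM the mean of Ptges3 over the 6 libraries was 30462 in the second set, 229 in the first and 43.3 in the third, ratios of 133 and 704. Its lowest CPM in libraries 4 to 6 was 49.7 times its highest elsewhere. By that ratio Ptges3 had rank 28 of 10121 genes, and 121 genes had a ratio of at least 10, so a pattern of this kind was shared with other genes. A processed pseudogene, Ptges3-ps, matched the Ptges3 transcripts at 100% over 480 bases and another, Gm11893, at 94.3% over 495 bases. Neither has a row in the count table, and how reads that fit several places were counted is not given in the sources used here. The part of such reads in the level of Ptges3 was not tested.

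The direction of the Ptges3 difference with dDAVP varied between the sets, and in none did it pass the test. The first set had it at 303, 411 and 326 normalised CPM in control and at 193, 299 and 270 with dDAVP, so every dDAVP library was below every control. The log2 fold change was -0.53 (SE 0.23), with an unadjusted p of 0.0414 and an edgeR adjusted p of 0.453. With single libraries of the set left out it lay between -0.64 and -0.33. Groups without overlap and lower with dDAVP were seen for 6.93% of all genes in these libraries. The second set had it at 30321, 25371 and 24833 in control and at 31996, 28489 and 206210 with dDAVP, which overlapped. Here the log2 fold change was 1.74 (SE 1.35, edgeR adjusted p = 0.999), and without dDAVP 6 it was 0.07. The TMM factor of dDAVP 6 was 0.306, so its normalised value exceeds its CPM of 63170.

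The third set had Ptges3 at 72.5, 4.17 and 31.9 normalised CPM in control and at 3.75, 10.3 and 3.97 with dDAVP. Control 7 and control 9 were above all dDAVP libraries, and control 8 lay among them. The log2 fold change was -2.63 (SE 0.97), with an unadjusted p of 0.0176 and an edgeR adjusted p of 0.923, and it was -1.40 without control 7. The interaction of set and treatment for Ptges3 had an edgeR p of 0.00495 and an adjusted p of 0.435, with 6.63% of all genes at an unadjusted p under 0.05 and 0% called. Over all libraries the fold change had no stable direction. It was -0.44 (SE 0.66) with the set term and 1.71 (SE 1.82) without it on the log2 scale, and 0.74 with the set term when libraries 7 to 9 were left out.

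Among the receptors, Ptger1 had the most counts in every set, though only 39 to 89 per library in libraries 1 to 3 and 33 in dDAVP 6. It encodes EP1, which signals through calcium (chromosome 8, 83666678 to 83672753, plus strand). Libraries 1 to 3 held it at 4.03, 2.06 and 3.74 normalised CPM in control and at 2.70, 2.66 and 5.02 with dDAVP, with overlap and a log2 fold change of 0.00 (SE 0.36, edgeR adjusted p = 0.997). Libraries 4 to 6 held it at 24.6, 13.9 and 14.0 in control and at 8.85, 12.7 and 3.95 with dDAVP, so that all dDAVP libraries were below all controls. That separation, lower with dDAVP, was seen for 4.39% of all genes there, and the log2 fold change of -1.09 (SE 0.60) had an edgeR adjusted p of 0.999. In CPM from library totals alone, which takes no TMM factor, the lowest control was at 12.9 and the highest dDAVP library at 12.5, again without overlap.

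In libraries 7 to 9 Ptger1 was much higher and split across the treatments. It was at 24.3, 92.7 and 210 normalised CPM in control and at 221, 16.0 and 11.4 with dDAVP. Control 8, control 9 and dDAVP 7 were thus high and control 7, dDAVP 8 and dDAVP 9 low, a division that the labels do not give. The log2 fold change of -0.46 (SE 1.10) became -3.02 without dDAVP 7 (edgeR adjusted p = 0.134) and 0.52 without control 9. With the set term over all libraries it was -0.46 (SE 0.49, adjusted p = 0.935), and the two-sided exact permutation test within the sets gave p = 0.2.

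Ptger1 was higher in libraries 7 to 9 than in libraries 1 to 3 by 4.80 on the log2 scale (SE 0.69, edgeR adjusted p = 5.04e-06) and in libraries 4 to 6 by 1.87 (SE 0.62, adjusted p = 0.0134). Of all genes, 63.7% and 55.9% were called for these contrasts. The strand setting of the counting is not given in the sources used here, so reads from the opposite strand at this locus cannot be told apart from those of Ptger1, and its level is uncertain. The neighbouring Gipc1, which encodes a scaffold protein (chromosome 8, 83652677 to 83664694, plus strand) and does not overlap Ptger1, averaged 20.4 times more CPM in the third set than in the first, beside 51.8 times for Ptger1.

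**Figure D4:**
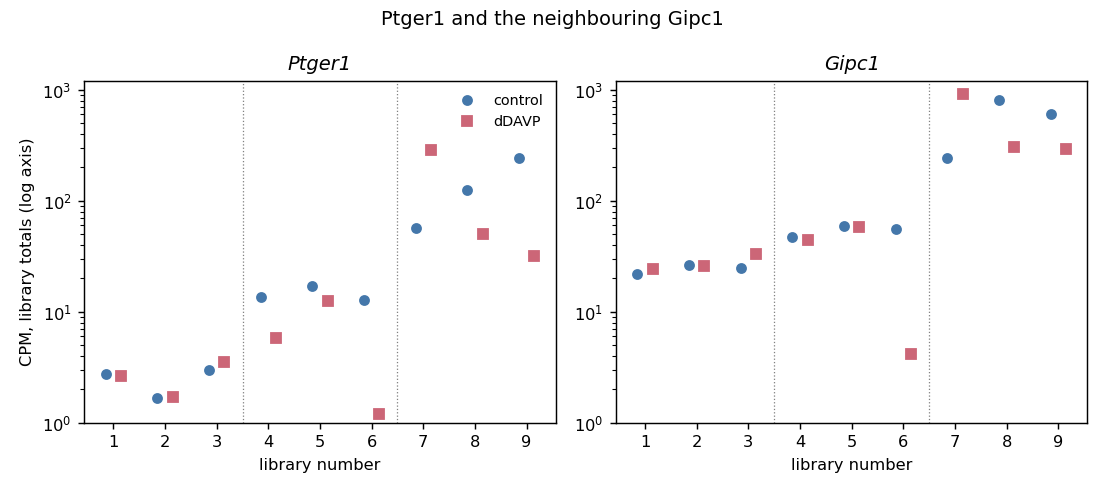
CPM from library totals of Ptger1 and of its neighbour Gipc1 in each library, on a log axis; points are single libraries and dotted lines part the sets. Both genes are highest in control 8, control 9 and dDAVP 7, where Ptger1 reached 124, 243 and 288 CPM.

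Ptger4 encodes the cAMP-raising receptor EP4 (chromosome 15, 5206661 to 5244187, minus strand). Its level was low throughout, and 7 of 9 replicate numbers had less of it in the dDAVP library in normalised CPM (6 of 9 in CPM from library totals). As for Ptgs1, these counts depend on the numbering. The first set had 8, 5 and 3 counts in control and 5, 2 and 4 with dDAVP, too few for the test. The second set had it at 0.994, 1.81 and 1.74 normalised CPM in control and at 0.993, 1.67 and 0.478 with dDAVP, which overlapped. The third set had it at 0.914, 1.22 and 3.97 in control and at 3.43, 0.142 and 0.0348 with dDAVP. As for Ptger1, dDAVP 7 stood with control 9 at the top and dDAVP 8 and dDAVP 9 at the bottom. The log2 fold change with the set term was -0.63 (SE 0.67, edgeR adjusted p = 0.935), and in libraries 7 to 9 it was -0.83 (SE 1.48), -4.51 without dDAVP 7 and 0.16 without control 9. Ptger4 was called for the difference between sets (edgeR adjusted p = 0.0201), beside 78% of all genes. This call was lost without control 3, control 9, dDAVP 2 or dDAVP 7, each left out singly, and in each case the unadjusted p stayed at or below 0.0441.

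Per length, Ptger1 exceeded Ptger4 in every library, by 12.1 to 518 times in FPKM. Ptger4 shares 82 exonic bases with Ttc33 and 1015 with the pseudogene Gm15937, both on the opposite strand, and this ratio also carries the uncertainty described for Ptger1.

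Ptger3, the gene of the cAMP-lowering receptor EP3 (chromosome 3, 157566892 to 157645888, plus strand), had 21 counts in dDAVP 2, 23 in dDAVP 3 and 0 in each of the other 16 libraries. These were 0.407 and 0.448 FPKM. The gene did not pass the filter on low counts. With no filter edgeR called it in libraries 1 to 3 (adjusted p = 0.00869), where 207 genes were called instead of 41. It was also called when dDAVP 1, at 0, was left out (adjusted p = 0.00311), with 774 genes called. In that fit it passed the filter only through the libraries where it was high, so the call supports nothing. Ptger3 is known from the thick ascending limb of the kidney tubule as well as from the collecting duct.

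Some markers of other tubule segments were also counted in these libraries. Of the 3 listed markers of the thick ascending limb and macula densa, Umod had 566 and 483 counts in dDAVP 2 and dDAVP 3 against at most 1 in the other 4 libraries of the set. Slc12a1 had 14 and 15 against 0, and Nos1 had 0 in all 18 libraries. Slc12a1 and Umod were also counted where Ptger3 was at 0, with 55 and 52 counts of Slc12a1 in control 8 and control 9, 29 and 30 in dDAVP 7 and dDAVP 8, and 42 and 29 of Umod in control 9 and dDAVP 7. The summed FPKM of the 4 proximal tubule markers in the first set was 0.122 to 0.265 with dDAVP and 0.275 to 0.432 in control. In normalised CPM, 6.93% of single genes tested there were lower with dDAVP without overlap. Of these markers, Lrp2 averaged 0.279 FPKM over the 18 libraries and the others at most 0.0156 each. Looked for after the values of Ptger3 were seen, 47 genes had at least 10 counts in both dDAVP 2 and dDAVP 3 and 0 in the other 4 libraries of the set, which is 0.346% of the 13603 genes with a count in the set. Among these 47, and picked after their values were seen, were Cldn16 (22 and 45 counts), a tight junction gene of the thick ascending limb, and Calb1 (72 and 69), a calcium-binding protein gene of distal tubule segments. The Y-chromosome gene Eif2s3y was another, with 148 and 155 counts, and outside the set it had 10 in dDAVP 5, 9 in dDAVP 6 and 0 in the other 10 libraries. The part of RNA from other cells in the Ptger3 counts was not tested.

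Genes whose level followed that of a receptor or of Ptgs1 across libraries were taken as the 3 with the highest Pearson correlation over the 18 libraries after the set means were removed. For Ptger1 these were Vps37b, Shkbp1 and Fbxo2 (r = 0.95 each). For Ptger4 they were Zbed3 (0.95), Apba3 (0.93) and Gdf15 (0.93), and for Ptgs1 Cwh43 (0.87), Eif2d (0.87) and Rhbdl2 (0.85). The points share libraries and therefore depth, and for Ptger1 and Ptger4 they include the division within libraries 7 to 9, so these values only describe the data.

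Of 55 other genes of eicosanoid metabolism, 53 had a row, 15 had 0 counts in all libraries and 14 averaged at least 1 FPKM. The most abundant by mean FPKM were the carbonyl reductase gene Cbr1 (51.4), Pla2g7 (32.2), which encodes the phospholipase that inactivates platelet-activating factor, the leukotriene A4 hydrolase gene Lta4h (24.5) and the epoxide hydrolase gene Ephx1 (20.0). The cytosolic phospholipase A2 gene Pla2g4a, whose product is known to release arachidonic acid, averaged 1.48 FPKM. With the set term 18 of the 55 were tested and edgeR called 0, with 0 at an unadjusted p under 0.05, beside the 0.079% of all genes called and the 6.03% under 0.05. Of their log2 fold changes 12 were positive and 6 negative, with a median of 0.11.

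In the single sets edgeR called 0 of 17, 0 of 18 and 0 of 24, with 3 at an unadjusted p under 0.05 in each, beside 10.5%, 4.61% and 5.19% of all genes. Without the set term it called 0 of 18. Cbr1 in libraries 1 to 3 had a log2 fold change of 0.81 (SE 0.30, edgeR adjusted p = 0.393), and in libraries 7 to 9 of -0.56 (SE 0.75, adjusted p = 0.966). Its sign in libraries 7 to 9 turned with the scaling, since the means were 83.7 FPKM in control and 99.2 with dDAVP. For the difference between sets 12 of the 18 were called, beside 78% of all genes. They were 5 of 6 phospholipase and lipid release genes, 4 of 6 of transport and inactivation, 2 of 3 of the lipoxygenase, leukotriene and epoxygenase branch, 1 of 2 other synthases and 0 of 1 other receptor. All 5 tested members of the prostaglandin E2 pathway were called for the difference between sets.

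**Figure D5:**
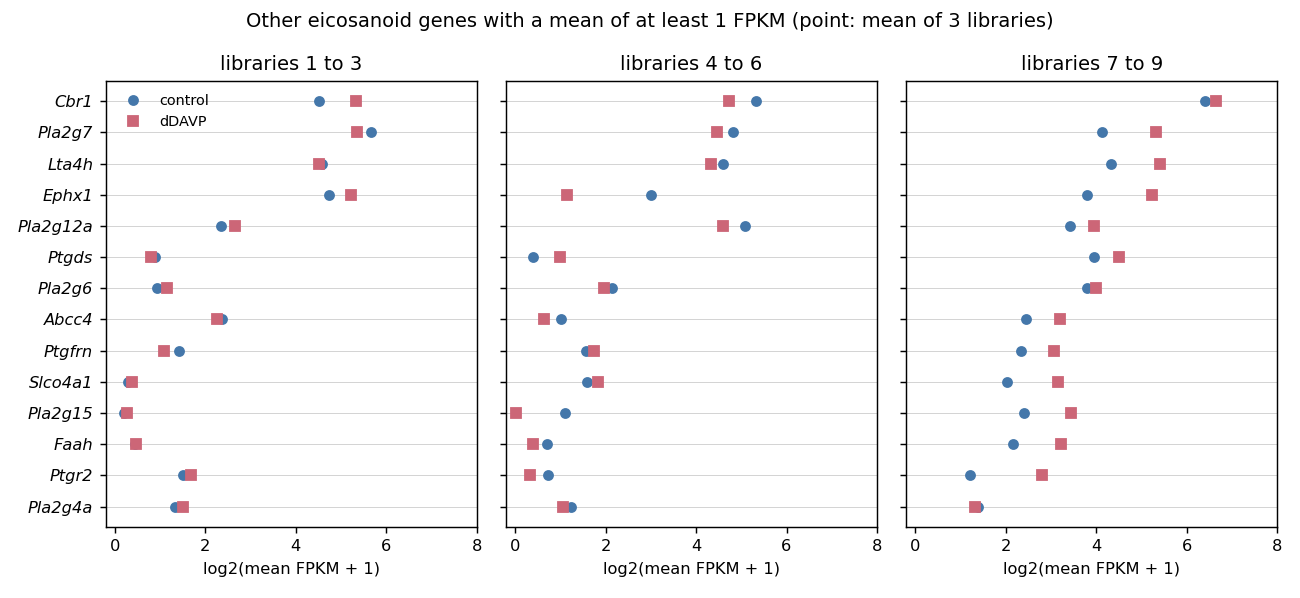
Mean FPKM of the other eicosanoid genes that averaged at least 1 FPKM, for control and dDAVP in each set, 3 libraries a mean, as log2 of the mean plus 1. Cbr1 has the highest mean, with 21.9 to 99.2 FPKM across the 6 means, and Ephx1 runs from 1.22 with dDAVP in libraries 4 to 6 to 36.8 with dDAVP in libraries 7 to 9.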

How the data were processed

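Per the labels' protocols, libraries were made from 20 ng of total RNA and sequenced single-end over 50 bp. A low-input kit and a protocol for single cells are both described there, and which one a library had is not said. The submitters' processing notes name STAR 2.4.0.1, SAMtools, HTSeq and build mm10. Raw counts per gene are given by symbol in the authors' deposited count table. The deposited FPKM table holds values that the authors scaled by gene length and counted reads.

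Counts were tested with edgeR 4.0.16 (quasi-likelihood, TMM, filterByExpr, two-sided, Benjamini-Hochberg over all genes tested) in R 4.3.3. The fits were of all 18 libraries with the set of replicate numbers as a term, of all without it, and of each set. The difference between sets and the interaction of set and treatment were also tested. An SE is the log2 fold change divided by the square root of F. Exact permutation tests used log2 of normalised CPM with an offset of 1. Alternatives were DESeq2 1.42.0, limma 3.58.1 (voom, and log2 of FPKM plus 0.1 or 1), other scalings and filters, the replicate number as a block, and libraries or sets left out; library totals alone were added after the data were seen. Some of the fits, but not those of every set, were also run on simulated data. The outcome is not given here, so no fit is taken as checked by those runs. Positions came from GENCODE M21 and sequences from RefSeq.

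The members, the gene lists and the tests were chosen with earlier results of these data known. All members were named, with Aqp2, the 4 most abundant of the other eicosanoid genes (none was called), and 3 genes of like pattern for each tested receptor gene and Ptgs1; other genes were chosen after their values were seen. Numbers 1 to 9 recur in both groups. Deviations from the group means of same-numbered libraries correlated at 0.40 to 0.93, every pair above 0.1, but at -0.71 to 0.43 once set means were removed, and in 3 of 9 cases the best match carried the same number. Between libraries of 1 group the lowest chi-square per degree of freedom was 71.6 (control 2 and 3), so none agreed within sampling noise. Some genes are not reported here.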

Additional observations from a re-analysis of the deposited data

Results flagged for a closer look

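In 5 of the 15 groups checked (each a gene in the 9 control or the 9 dDAVP libraries, as log2 of normalised CPM plus 1), 1 library lay far from the rest. The measure was the share of the group's whole range taken by the gap to the nearest other library, against Dixon's critical value of 0.493. For 9 values of 1 normal distribution, chance alone passes it in about 5% of groups. The groups here pool sets that differ, and some hold libraries at 0. That rate therefore does not hold for them, and the 5 of 15 cannot be set against it. Control 9 was such a library for Ptgs2, with a share of 1.0 that rests on 1 count beside 0 in the other controls. dDAVP 6 was another for Ptgs2 (0.91), on 3 counts. For Ptges it was control 7 (0.96), on 24 counts, and dDAVP 9 (0.68), on 660 counts. For Ptger1 it was dDAVP 7 (0.63), at 221 normalised CPM against at most 16.0 in the other dDAVP libraries. Most of these groups hold libraries at or near 0, and the causes were not tested.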

How the results depend on the processing

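For the members tested in the main fit of a comparison, 501 log2 fold changes were computed under the alternatives. None of these passed (lowest adjusted p 0.134). Ptger3, which no main fit tested, was the only member called for dDAVP. This was in libraries 1 to 3, 1 member with no filter and 0 to 1 when single libraries were left out. Of 737 alternatives of single members 688 kept direction and call, 44 reversed and 5 lost a call. Each lost call was edgeR's for the difference of Ptger4 between sets (edgeR adjusted p = 0.0643 with no filter).

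Counts of all genes called moved more. With the set term (8 genes) they were 5 with library totals only, 31 with DESeq2, 118 with voom, 1 with the replicate block, 5 and 3 on log2 FPKM plus 0.1 and plus 1, 0 without libraries 1 to 3, 0 without libraries 4 to 6, and 4 to 9 with single libraries left out. Without it (0 genes) they were 8 with DESeq2, 11 with voom, 1 with the block, 2 on FPKM with either offset and 0 to 1 with single libraries left out. In libraries 1 to 3 (41 genes) they were 123 with DESeq2, 634 with voom, 207 with no filter, 101 with the block, 9 on log2 FPKM plus 1 and 13 to 774 with single libraries left out. In libraries 4 to 6 (0 genes) they were 1 with library totals only, 29 with DESeq2, 2 with voom, 1 with no filter and 0 to 2 with single libraries left out. In libraries 7 to 9 (0 genes) they were 7 with library totals only, 93 with DESeq2, 220 with voom, 30 with no filter, 3 with the block and 0 to 98 with single libraries left out. For the interaction (0 genes) they were 91 with DESeq2, 35 with no filter and 0 to 45 with single libraries left out.

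The log2 fold changes that reversed were of Ptges2, Ptges3, Ptger1, Ptger4 and Ptgs1, in fits of all libraries or of single sets. Ptges2 became 0.03 with the set term under voom and on log2 FPKM plus 1, and ran from -0.31 to 0.03 with single libraries left out. Without the set term Ptges2 became 0.16 with library totals only, 0.06 under voom and 0.03 on log2 FPKM plus 1 (-0.39 to 0.25 with single libraries left out). In libraries 7 to 9 it became 0.22 with library totals only, 0.59 under voom, 0.11 with the replicate block, and 0.77 and 0.73 on log2 FPKM plus 0.1 and plus 1 (-0.62 to 0.34). In libraries 1 to 3 it became 0.17 under voom (-0.47 to 0.21), and in libraries 4 to 6 it ran from -1.05 to 0.14. Ptges3 became 0.74 with the set term without libraries 7 to 9. Without the set term it became -0.77 under voom, -0.37 with the replicate block, and -0.45 and -0.42 on log2 FPKM plus 0.1 and plus 1 (-0.25 without dDAVP 6 to 2.21). Ptger1 ran from -2.52 to 0.51 without the set term and from -3.02 to 0.52 in libraries 7 to 9. In libraries 1 to 3, where it was 0.00, it became -0.29 under voom, -0.01 with no filter and -0.00 with a strict filter (-0.29 to 0.18). Ptger4 in libraries 7 to 9 ran from -4.51 to 0.16. Ptgs1 became -0.10 in libraries 1 to 3 under voom, and in libraries 4 to 6 -0.11 and -0.02 on log2 FPKM plus 0.1 and plus 1 (-0.36 to 1.01). The causes were not tested. The replicate block changed no call of a member. Counts were too low for the main fits for Ptgs2, Ptger2, Ptger3 and Hpgd, for Ptges outside the fit of libraries 7 to 9, and for Ptger4 in libraries 1 to 3. Where counts were at or near 0, low and absent expression cannot be told apart at this depth. Ptger4 did have counts in each library of the first set.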
